A study of Mus musculus with 4 samples.

Results

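Klf5 KO and WT mouse embryonic stem (ES) cells were compared for the transcription factors that drive the epithelial-mesenchymal transition (EMT) and for vimentin, the intermediate filament protein of mesenchymal cells. The members were the rows of the deposited table whose platform gene symbol was Snai1, Snai2, Zeb1, Zeb2, Twist1, Twist2, Prrx1, Foxc1, Foxc2 or Vim. These 10 genes, of 18194 named by a row with 1 symbol, were represented by 26 probe sets of 45101, and all 26 are accounted for. The samples were Klf5 KO clones 1 and 2 and the control WT clones 1 and 2, hybridised to 1 Affymetrix array each. All 4 were grown in ES medium with 15% fetal bovine serum and LIF, a cytokine that holds back their differentiation. The labels call them clones but give neither the deleted part of Klf5 nor the parental line, strain or passage, so the 2 arrays of a genotype measure the spread between clones, which may in part be technical.

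EMT is the process by which epithelial cells give up their cell-cell junctions and polarity and become migratory mesenchymal cells, and it operates at gastrulation and in the neural crest. Snail and Zeb factors are zinc finger repressors that bind E-boxes, such as those of the E-cadherin gene, while Twist proteins are basic helix-loop-helix (bHLH) factors that pair with E proteins. Prrx1 is a homeobox factor of limb and craniofacial mesenchyme, and Foxc1 and Foxc2 are forkhead factors of mesoderm and its vessels. Mouse ES cells carry E-cadherin at their surface.

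Without Klf5, Prrx1, Twist2, Foxc2 and Snai2 read higher, while no probe set of Snai1, Zeb1, Zeb2, Twist1, Foxc1 or Vim passed the test. The values are intensities after quantile normalization, in arbitrary units, and the fold changes are on the scale of log2(intensity + 16), which understates changes of dim probe sets. Probe sets below the 40th percentile of the mean log2 value, at an intensity of 13.05, were not tested, which removed 7 of the 26 and left 19, with at least 1 for each of the 10 genes. Of the 19, 9 were higher in KO clones, 0 were lower and 10 did not pass (limma, Benjamini-Hochberg adjusted p under 0.05 over 27022 probe sets, 15 with an unadjusted p under 0.05). Over all tested probe sets, 2.44% were higher and 1.25% lower, or 3.69% in either direction. The higher ones made up 66.2% of those calls, against 31.1% when arrays were centred on their medians instead of quantile normalized. The filter bears on these counts, because 8 of the 19 passed it through KO clones only, with the WT mean under the filter level, and 6 of the 9 higher ones are among them. For the other 3, both probe sets of Snai2 and that of Twist2, the WT mean also lay above that level. With no filter, 5 of all 26 probe sets were higher, 3 of Prrx1 and 1 each of Twist2 and Snai2, against 0.364% of 45037. Without regard to the test, both KO clones read above both WT clones on 14 of the 19 and below them on 1, beside 23.9% and 28.4% of all tested probe sets.

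**Figure D1:**
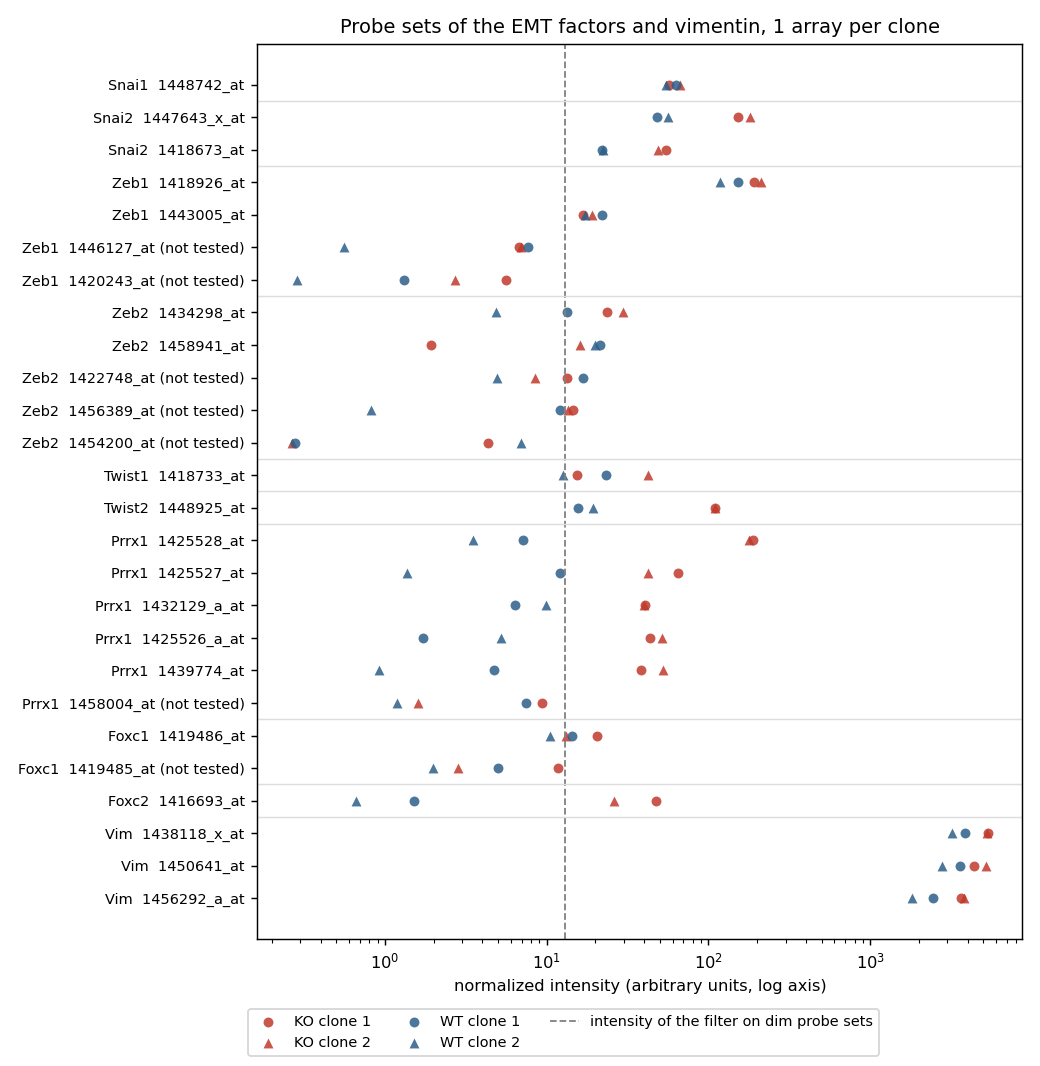
Normalized intensity (arbitrary units, log axis) of each of the 26 probe sets on the arrays of KO clones 1 and 2 (red) and WT clones 1 and 2 (blue), with the filter level of 13.05 as a dashed line. The KO points of Prrx1, Twist2, Foxc2 and Snai2 lie to the right of the WT points, except on the untested Prrx1 probe set, and those of Snai1, Twist1 and Foxc1 mix with them.

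The labels were checked on Klf5 itself. Probe set 1451021_a_at read 34.8 and 49.9 in KO clones 1 and 2, against 2398 and 1782 in WT clones 1 and 2, and fell by 5.17 ± 0.22 on the log2 scale (limma, moderated SE, n = 2 arrays per group, adjusted p = 3.3e-05). A further Klf5 probe set, 1451739_at, read 82.6 and 61.0 in KO clones and 102 and 88.6 in WT clones and did not pass (-0.35 ± 0.20, limma, adjusted p = 0.36), and the remaining one was below the filter. Where in the transcript each of them reads, and whether that lies inside the deletion, is not stated in the labels or files. As deposited, the arrays' trimmed mean intensities were 138 and 150.5 in KO clones and 227 and 139 in WT clones, so WT clone 1 was the brightest array before normalization. Correlations across probe sets were 0.986 between the KO clones and 0.986 between the WT clones, and 0.972 to 0.979 between genotypes. Beta-actin control probe sets near the transcript's 3′ and 5′ ends, which track RNA integrity, differed by 0.79 and 0.55 (log2) in KO clones and by 0.40 and 0.49 in WT clones, and the part of this difference in the results below was not tested. For Gapdh the same 3′ to 5′ log2 ratio was -0.36 and -0.30 in KO clones and -0.28 and -0.36 in WT clones, so the genotypes overlapped. All 10 listed ES cell markers, Pou5f1, Sox2 and Nanog among them, passed the filter and 0 passed the test (limma, adjusted p under 0.05, 1 with an unadjusted p under 0.05), with summed intensities of 35910 and 36620 in KO clones and 37860 and 38670 in WT clones.

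Fibroblast and feeder cell markers were higher on the same arrays. Of 16 listed, 14 passed the filter and 13 of these rose, beside 2.94% of all tested genes. With no filter Col1a1, Col3a1, Col5a1, Pdgfrb and Postn did not pass (limma, adjusted p = 0.069, 0.2, 0.1, 0.099 and 0.057). The summed intensity of the list was 7176 and 6333 in KO clones, against 745.6 and 650.9 in WT clones. S100a4 alone read 2960 and 1925 in KO clones and 31.4 and 32.7 in WT clones. Dcn, among the 13, passed the filter through the KO clones only. No marker read 0 on any array, and the fibroblast genes Lum and Fap were under the filter level in both KO clones, at 7.58 and 8.04 for Lum and 12.7 and 12.5 for Fap. Snai2, Twist2, Prrx1 and Vim are themselves made by fibroblasts, and the part of such cells in the values below was not tested. The labels do not say whether the clones were grown on feeder cells. In bulk RNA, more cells of a type and more RNA per cell cannot be told apart.

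**Figure D2:**
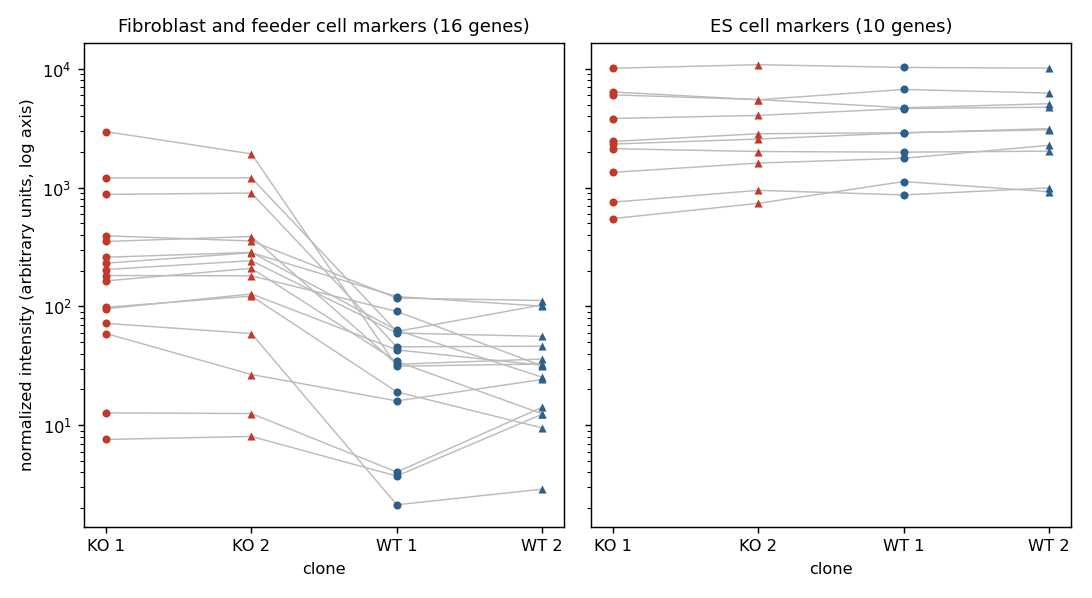
Normalized intensity (arbitrary units, log axis) of 16 fibroblast and feeder cell markers and of 10 ES cell markers, with a point per array and a line joining the points of a gene. The fibroblast markers sum to 7176 and 6333 in KO clones and to 745.6 and 650.9 in WT clones, and the ES cell markers to 35910 and 36620 in KO clones and to 37860 and 38670 in WT clones.

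RefSeq sequence (GRCm38.p6) upstream of the start was examined for 7 of the 10 genes. It is shown for Prrx1 and Twist2, which rose, and for Twist1 and Vim, which did not pass. The 250 bases before an annotated start are given 5′ to 3′ on the gene's strand, with capitals marking matches on either strand to GGGCGG (the GC box), CACCC (the core of sites bound by Kruppel-like factors such as Klf5) or CACCTG (an E-box bound by Snail and Zeb factors). The windows are chr1:163313651-163313900 on the minus strand for Prrx1, chr1:91801211-91801460 on the plus strand for Twist2, chr12:33957421-33957670 on the plus strand for Twist1 and chr2:13574061-13574310 on the plus strand for Vim.
Prrx1: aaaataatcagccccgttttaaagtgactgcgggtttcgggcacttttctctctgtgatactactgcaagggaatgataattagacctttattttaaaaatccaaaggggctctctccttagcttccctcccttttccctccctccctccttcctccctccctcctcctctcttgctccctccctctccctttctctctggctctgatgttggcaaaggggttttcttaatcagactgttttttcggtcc
Twist2: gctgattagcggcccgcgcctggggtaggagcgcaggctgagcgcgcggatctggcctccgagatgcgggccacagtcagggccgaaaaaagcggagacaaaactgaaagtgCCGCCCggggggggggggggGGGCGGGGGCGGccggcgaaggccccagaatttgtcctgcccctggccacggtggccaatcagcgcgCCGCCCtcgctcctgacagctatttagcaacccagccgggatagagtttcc
Twist1: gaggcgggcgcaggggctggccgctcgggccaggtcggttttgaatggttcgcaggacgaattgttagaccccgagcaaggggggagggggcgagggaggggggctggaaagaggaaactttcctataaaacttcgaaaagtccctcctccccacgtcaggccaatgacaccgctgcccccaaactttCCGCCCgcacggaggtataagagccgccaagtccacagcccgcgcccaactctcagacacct
Vim: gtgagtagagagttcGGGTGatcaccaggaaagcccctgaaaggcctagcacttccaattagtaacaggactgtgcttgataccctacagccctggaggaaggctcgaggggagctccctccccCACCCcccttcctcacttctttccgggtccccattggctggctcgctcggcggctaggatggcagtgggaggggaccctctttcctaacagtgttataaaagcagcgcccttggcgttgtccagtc
The Prrx1 window lies inside the gene's span (chr1:163245119-163315145), before an annotated start downstream of the gene's 5′ end. The windows of Twist2, Twist1 and Vim end where their gene spans begin, so that of Prrx1 is of another kind. It held none of the 3 motifs, and its GC content was 47.6%, against 68.8% for Twist2. The Twist2 window held 4 GC boxes and the Twist1 window 1, and neither held CACCC or CACCTG. In the Vim window there were 2 matches to CACCC and none to the other motifs. Over 32851 promoter windows of the same length, 32.7% held the GC box, 52.0% held CACCC and 17.2% held CACCTG, and no matches overlapped in the 4 windows shown. Among the 7 genes examined, Snai1 alone had a window that held CACCTG, with 1 match and neither of the other motifs. The Foxc1 window held 1 GC box and 1 CACCC. For Snai2 and Foxc2 no sequence was at hand, and Zeb1 was left out without being examined. A match is a string of letters and not a measured site.

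Prrx1 showed the largest change among the members, and 5 of its 6 probe sets rose. All 5 passed the filter through the KO clones only, with WT means under the filter level, so their share is not a finding, and with no filter 3 of the 6 passed. The gene lies at chr1:163245119-163315145 (GRCm38.p6). Its brightest probe set, 1425528_at, read 188.4 and 177.6 in KO clones 1 and 2, against 7.144 and 3.488 in WT clones 1 and 2. The KO clones stood well apart from the WT clones, both of which were under the filter level. The difference was 3.23 ± 0.19 on the log2 scale, or 9.37-fold (2 clones per genotype, limma with its SE, adjusted p = 7.9e-05). Probe set 1425527_at read 65.2 and 42.0 in KO clones and 12.1 and 1.36 in WT clones, a rise of 1.64 ± 0.27 (limma, adjusted p = 0.014). On 1425526_a_at the readings were 43.6 and 51.8 in KO clones and 1.72 and 5.19 in WT clones, a rise of 1.71 ± 0.19 (limma, adjusted p = 0.0020). The groups did not overlap on either of them, nor on the next pair. For 1439774_at the KO clones read 38.5 and 52.3 and the WT clones 4.69 and 0.917 (1.71 ± 0.20, limma, adjusted p = 0.0028), and for 1432129_a_at the KO clones read 40.2 and 39.9 and the WT clones 6.38 and 9.85 (1.22 ± 0.18, limma, adjusted p = 0.0090). Of the 6 probe sets of Prrx1, 3 were designed from one sequence record and are not independent readings. The sixth, 1458004_at, read 9.40 and 1.60 in KO clones and 7.47 and 1.18 in WT clones and was removed by the filter.

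Some Prrx1 probe sets went untested under some alternatives, because they fell below the filter. This was so for 1425526_a_at without KO clone 2, and for 1439774_at with either KO clone left out or with a pseudocount of 1. With the stricter filter, 1425528_at alone among the Prrx1 probe sets was tested. The Prrx1 calls on 1425528_at, 1425526_a_at and 1439774_at held under each alternative in which they were tested. Those on 1425527_at and 1432129_a_at were lost without KO clone 1 (limma, adjusted p = 0.14 and 0.087) and without KO clone 2 (limma, adjusted p = 0.052 and 0.060). With no filter both were lost as well (limma, adjusted p = 0.11 and 0.064), and so were the first with a pseudocount of 1 (limma, adjusted p = 0.17) and the second without normalization (limma, adjusted p = 0.097). The size depended on the pseudocount: the log2 fold change of 1425528_at ran between 1.83 when 64 was added and 4.93 when 1 was added.

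Twist2 rose and its paralog Twist1 did not pass. Twist2 (chr1:91801461-91848034) is a bHLH repressor of dermal and mesenchymal precursor cells. Its 1 probe set, 1448925_at, read 109.2 and 109.3 in KO clones, against 15.5 and 19.4 in WT clones, so that the clones of each genotype lay close together and the genotypes did not overlap. The rise was 1.91 ± 0.18 on the log2 scale, or 3.75-fold (limma, adjusted p = 0.00089), and it passed in all 12 alternatives, from 1.09 (pseudocount of 64) to 2.58 (pseudocount of 1). Twist1 (chr12:33957671-33959831), which acts in cranial mesoderm and neural crest, read 15.3 and 42.5 in KO clones and 23.1 and 12.6 in WT clones on 1418733_at. Here the genotypes overlapped, and the KO clones were farther apart than the WT clones. The log2 difference was 0.36 ± 0.30 (95% confidence interval -0.32 to 1.03, limma, adjusted p = 0.54), and without KO clone 2 it was -0.096. The difference between the responses of Twist2 and Twist1 was not tested.

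Foxc2 rose, with WT readings close to 0, and Foxc1 did not pass. The Foxc2 gene (chr8:121116171-121118895) encodes a forkhead factor of paraxial mesoderm and lymphatic vessels, and its probe set 1416693_at read 47.5 and 26.2 in KO clones, against 1.51 and 0.660 in WT clones. Both KO clones were above the filter level and both WT clones far below it. The rise was 1.60 ± 0.23 on the log2 scale, or 3.03-fold (limma, adjusted p = 0.0068). Above the WT mean, KO clone 1 stood 1.89 and KO clone 2 stood 1.31 higher on that scale. The call was lost with no filter (limma, adjusted p = 0.076) and was 0.62 with a pseudocount of 64. The probe set fell below the filter and was not tested with either KO clone left out, with a pseudocount of 1 or with the stricter filter. Foxc1 (chr13:31806646-31810635), its paralog in the same tissues, read 20.4 and 13.2 in KO clones and 14.3 and 10.5 in WT clones on 1419486_at. These groups overlapped, with a log2 difference of 0.20 ± 0.20 (-0.25 to 0.65, limma, adjusted p = 0.61). The other Foxc1 probe set, 1419485_at, read at most 11.7 on any array and was not tested. Whether Foxc2 and Foxc1 differ in response was not tested either.

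Snai2 rose and Snai1 did not pass, and the difference between their responses was not tested. Snai2 (Slug, chr16:14705852-14709395) is the Snail factor of mouse neural crest and mesenchyme. Its first probe set, 1447643_x_at, whose suffix marks probes that can match other transcripts, read 152.8 and 181.5 in KO clones and 48.1 and 56.0 in WT clones. The other, 1418673_at, read 54.8 and 48.7 in KO clones and 21.9 and 22.4 in WT clones. On neither did the genotypes overlap. The log2 values rose by 1.43 ± 0.19 (2.69-fold, limma, adjusted p = 0.0048) and by 0.83 ± 0.18 (1.77-fold, limma, adjusted p = 0.041). The first call was lost with a pseudocount of 1 and in the values as deposited (limma, adjusted p = 0.053 and 0.073). The second was lost with any 1 array left out: limma's adjusted p was 0.196 without KO clone 1, 0.092 without KO clone 2, 0.15 without WT clone 1 and 0.14 without WT clone 2. It passed in 2 of 11 alternatives, the variance trend and the block, and missed the threshold with pseudocounts of 1 and 64, no filter, no normalization and median centring (limma, adjusted p = 0.087, 0.060, 0.12, 0.49 and 0.051). Snai1 (chr2:167538195-167542814), the Snail factor of gastrulation, read 56.6 and 67.1 in KO clones and 63.2 and 54.8 in WT clones on 1448742_at. The genotypes overlapped, and the log2 difference was 0.053 ± 0.19 (-0.37 to 0.47, limma, adjusted p = 0.90). Its sign was negative in the values as deposited, after median centring, without KO clone 2 and without WT clone 2.

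**Figure D3:**
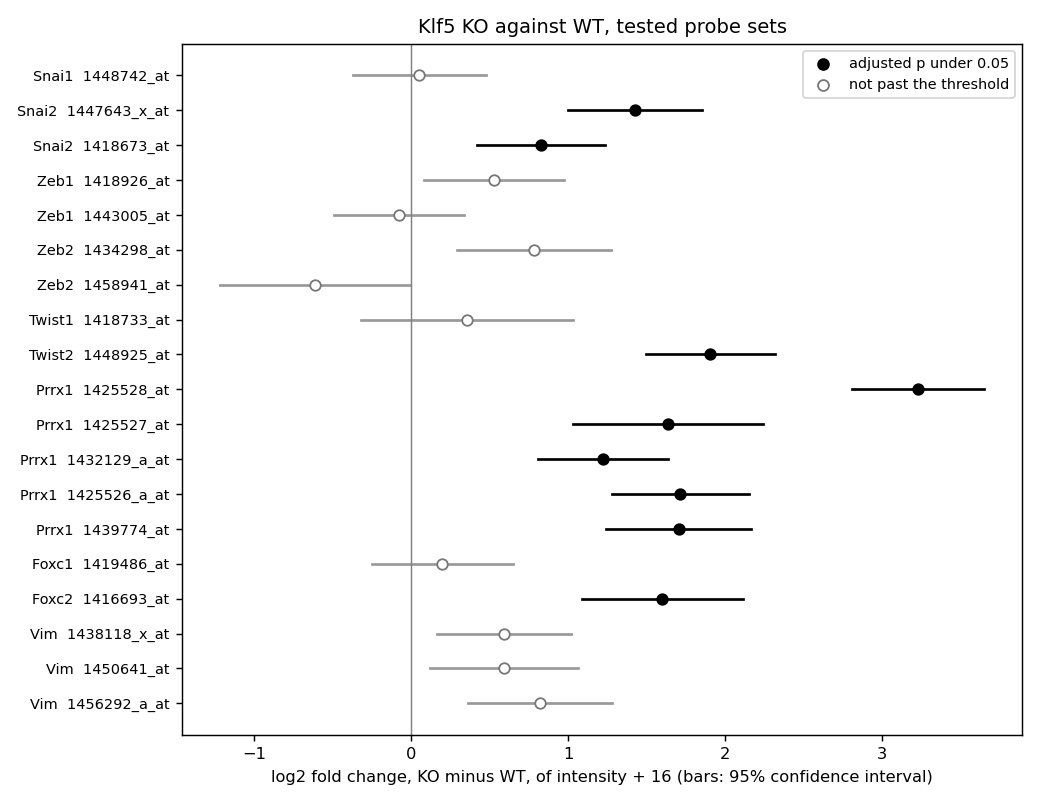
Log2 fold change, KO minus WT, of intensity + 16 for the 19 tested probe sets, with 95% confidence intervals from limma (2 arrays per group). Filled points are the 9 past the adjusted threshold, from 0.83 for Snai2 to 3.23 for Prrx1, and open points are the 10 that did not pass.

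The Zeb genes encode large repressors with a zinc finger cluster at each end, and no probe set of either passed. Zeb1 (chr18:5591327-5775468) had 4 probe sets. The brightest, 1418926_at, read 191.4 and 209.8 in KO clones and 152.9 and 117.2 in WT clones, without overlap, and its log2 difference was 0.53 ± 0.20 (0.085 to 0.97, limma, adjusted p = 0.18). In the values as deposited these readings overlapped. On 1443005_at the KO clones read 16.7 and 18.9 and the WT clones 21.9 and 17.3, with a difference of -0.074 ± 0.18 (limma, adjusted p = 0.86). The other 2 Zeb1 probe sets read at most 7.71 on any array and were not tested.

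Zeb2 (chr2:44983512-45117442) had 5 probe sets, and the 2 tested ones pointed in opposite directions. Probe set 1434298_at read 23.7 and 29.7 in KO clones and 13.4 and 4.86 in WT clones, without overlap (0.78 ± 0.22, limma, adjusted p = 0.089). On 1458941_at, KO clones read 1.92 and 16.03 and WT clones 21.5 and 19.8 (-0.61 ± 0.27, limma, adjusted p = 0.24), so that KO clone 1 lay far below the other 3 arrays. The remaining 3 read at most 16.8. The pair of tested probe sets therefore gives no single direction for Zeb2.

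Vimentin was bright on all 4 arrays and read higher in both KO clones, but it did not pass. Vim (chr2:13574311-13582826) encodes the filament protein that replaces keratins in many mesenchymal cells. Probe set 1438118_x_at carries the suffix of probes that can match other transcripts. It read 5324 and 5269 in KO clones and 3866 and 3190 in WT clones, a log2 difference of 0.59 ± 0.19 (0.16 to 1.02, limma, adjusted p = 0.13). Probe set 1450641_at read 4361 and 5211 in KO clones and 3599 and 2766 in WT clones, a difference of 0.59 ± 0.21 (0.12 to 1.06, limma, adjusted p = 0.15). On 1456292_a_at the KO clones read 3647 and 3797 and the WT clones 2428 and 1816, a difference of 0.82 ± 0.20 (0.36 to 1.28, limma, adjusted p = 0.063). The 3 probe sets had one sign, at 1.51-fold, 1.51-fold and 1.77-fold, and 2 of them come from one sequence record. In the values as deposited WT clone 1 read 4533 on 1450641_at, above KO clone 1 at 3979, and this probe set then overlapped. All 3 passed with a pseudocount of 64 (limma, adjusted p = 0.028, 0.047 and 0.011) and with a variance trend (limma, adjusted p = 0.013, 0.027 and 0.0048). Probe set 1456292_a_at also passed with the stricter filter, with clone number as a block and without WT clone 1 (limma, adjusted p = 0.031, 0.048 and 0.041).

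**Figure D4:**
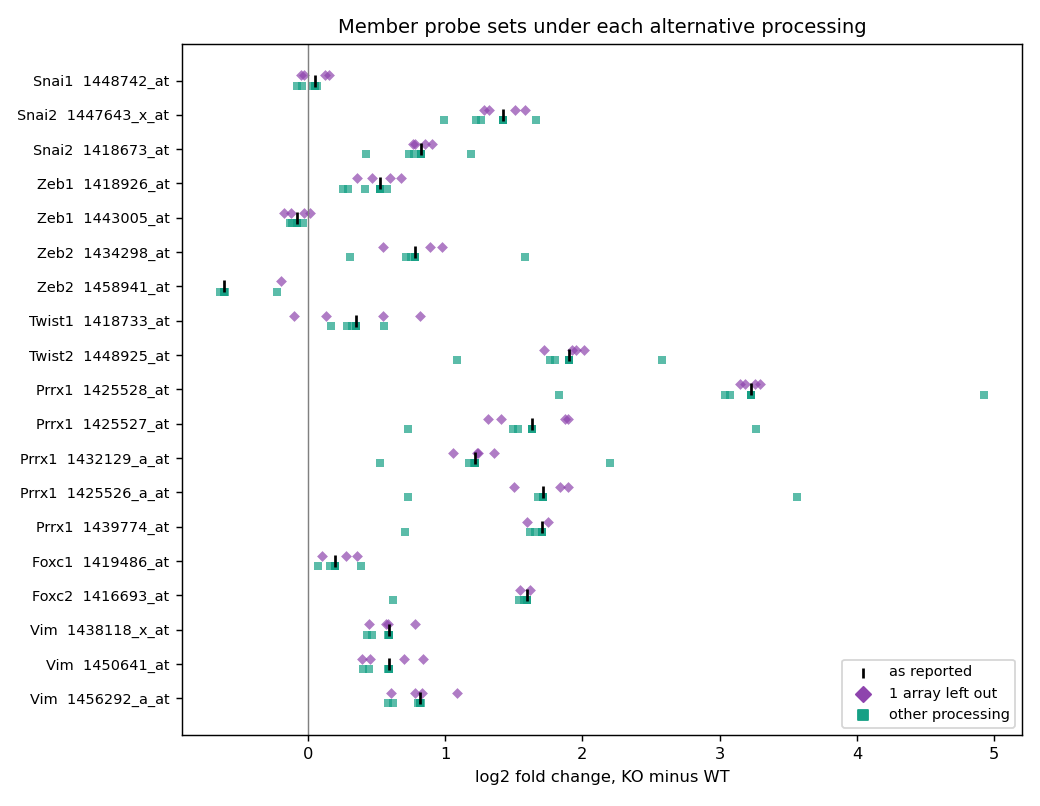
Log2 fold change, KO minus WT, of each tested probe set as reported (black bar), with 1 array left out (purple diamonds) and under other processing (green squares). The values for Prrx1, Twist2, Foxc2, Snai2 and Vim stay above 0 in every setting shown, from 0.39 for a Vim probe set to 4.93 for Prrx1, and those of Snai1, Twist1 and Zeb1 (1443005_at) fall on both sides. Values for Foxc1, Zeb1 (1418926_at) and Zeb2 (1434298_at), which did not pass, also stay above 0. Those of Zeb2 (1458941_at) stay below 0.

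The genes around this network were taken from 9 lists, with each gene represented by its brightest tested probe set. A probe set with the suffix _x_at was used only where the gene had no other. Over all 13023 genes, 2.94% passed as higher in KO clones and 1.34% as lower, 4.28% together, with a median log2 fold change of -0.024. Of 151 genes of the 9 lists together that were tested, 31 rose, 4 fell and 116 did not pass (limma, adjusted over all probe sets). Leaving out KO clone 1 gave 14 rises and leaving out KO clone 2 gave 16. The 19 mesenchymal effectors and 7 TGF-beta and BMP pathway genes described next make up most of the 31. The calls of S100a4, Cdh11, Inhba, Fst and Loxl3 held under each alternative. Those of Prrx2, Sox9, Marveld3, Krt18, Cdh2, Bmp4, Limd1, Ehmt2 and Lmnb1 were lost without the filter, and also with a pseudocount of 1. Wnt5a and Lox, named below without their readings, passed with no filter (limma, adjusted p = 0.02 and 0.0091).

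Mesenchymal effector genes, the matrix, cadherin and contractile genes that mark the end state of EMT, rose in 19 of 26 cases, 0 fell and 7 did not pass, with a median of 1.51. Wnt5a and Itgb3, among the rises, passed the filter through the KO clones only. The count of rises was 10 when KO clone 1 was left out, 10 when KO clone 2 was, and 9 with no filter or with a pseudocount of 1. S100a4, a calcium-binding protein, read 2960 and 1925 in KO clones and 31.4 and 32.7 in WT clones (5.64 ± 0.23, limma, adjusted p = 3.3e-05). Cdh11, a mesenchymal cadherin, read 655.6 and 519.5 in KO clones and 15.3 and 11.3 in WT clones (4.36 ± 0.20, limma, adjusted p = 3.3e-05). Of the 16 fibroblast markers, 6 are also in this list, and the fibroblast markers summed to 7176 and 6333 in KO clones against 745.6 and 650.9 in WT clones.

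Of 29 tested epithelial genes, 1 rose, 1 fell and 27 did not pass (limma, 11 with an unadjusted p under 0.05), with a median of -0.19. The count of falls depended on the processing: it was 6 with median centring, 4 with a pseudocount of 64, with a variance trend or with averaged probe sets, 3 with the block or the stricter filter, and 0 with any 1 array left out. The keratin Krt18 read 596.6 and 725.7 in KO clones and 1306 and 1180 in WT clones, and fell by 0.90 ± 0.19 (limma, adjusted p = 0.038), while Marveld3, a tight junction protein, rose by 0.85 ± 0.19 (limma, adjusted p = 0.043). Both calls were lost with any 1 array left out. E-cadherin (Cdh1), named outside the rule after its values were seen, is the textbook target of Snail and Zeb repression. It read 2242 and 2279 in KO clones and 2715 and 2351 in WT clones, a log2 difference of -0.16 ± 0.18 (limma, adjusted p = 0.67), and it passed in 0 of 13 alternatives. N-cadherin (Cdh2), also named after its values were seen, read 328.4 and 395.7 in KO clones, against 177.5 and 133.1 in WT clones, a rise of 1.15 ± 0.21 (limma, adjusted p = 0.020). That call was lost with no filter and without KO clone 1, KO clone 2 or WT clone 2 (limma, adjusted p = 0.11, 0.097, 0.095 and 0.10). Of 9 tested factors that hold the epithelial state, 0 passed (limma, 3 with an unadjusted p under 0.05), with a median of -0.31. The largest differences there were those of Ovol1, a zinc finger factor, at -0.55 ± 0.21, and Elf3, an Ets factor, at -0.48 ± 0.18 (limma, adjusted p = 0.18 and 0.19).

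**Figure D5:**
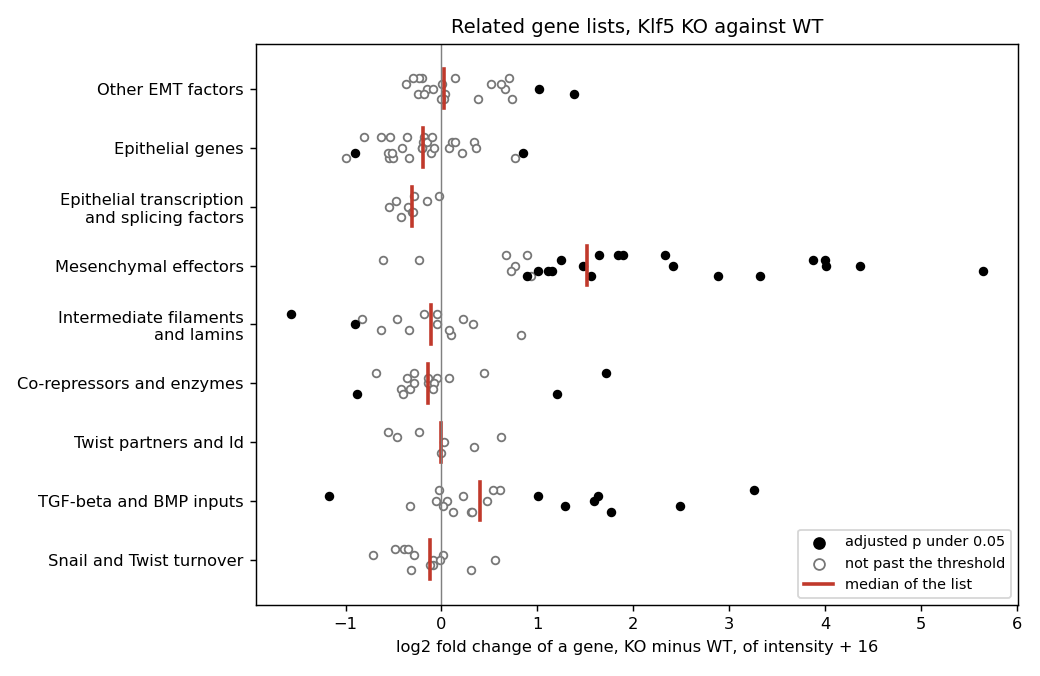
Log2 fold change, KO minus WT, of each tested gene in the 9 related lists, with filled points past the adjusted threshold and a red bar at the list's median. The mesenchymal effectors have a median of 1.51 with 19 of 26 genes higher, and the epithelial genes one of -0.19 with 1 higher and 1 lower.

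Few other factors tied to EMT passed. Of 21 tested, 2 rose, 0 fell and 19 did not pass, with a median of 0.030. Prrx2, the paralog of Prrx1, read 140.9 and 134.5 in KO clones and 52.4 and 34.9 in WT clones (1.38 ± 0.20, limma, adjusted p = 0.0082), and Sox9, a factor of cartilage and neural crest, read 35.5 and 22.4 in KO clones and 3.75 and 8.59 in WT clones (1.01 ± 0.22, limma, adjusted p = 0.038). Both WT readings of Sox9 were under the filter level, and it was called in 4 of 11 alternatives. Prrx2 no longer passed without KO clone 1 or KO clone 2 (limma, adjusted p = 0.0897 and 0.061). For Sox9 the call was lost without KO clone 2, WT clone 1 or WT clone 2. Without KO clone 1 its probe set fell below the filter and was not tested. Of 7 bHLH partners and Id inhibitors of Twist, 0 passed (limma, 2 with an unadjusted p under 0.05, median -0.0089), with the E protein gene Tcf4 at 0.62 ± 0.28 and the inhibitor Id1 at -0.56 ± 0.19 (limma, adjusted p = 0.26 and 0.14).

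TGF-beta induces Snail and Zeb genes in many epithelia. The listed genes of the TGF-beta and BMP pathways include inhibitors. They had 7 rises, 1 fall and 12 that did not pass of 20, with a median of 0.397. Tgfb3 and Ltbp2, among the rises, passed the filter through the KO clones only. There were 3 rises when KO clone 1 was left out, and as many without the filter or when 1 was added in place of 16. Inhba, the activin A subunit, read 328.9 and 253.0 in KO clones and 17.8 and 14.2 in WT clones (3.25 ± 0.20, limma, adjusted p = 8.1e-05). The activin inhibitor Fst rose by 2.48 ± 0.20 (limma, adjusted p = 0.00034) while the morphogen gene Bmp4 fell by 1.17 ± 0.21 (limma, adjusted p = 0.018). The Bmp4 call was lost without KO clone 1, KO clone 2 or WT clone 2 (limma, adjusted p = 0.10, 0.092 and 0.094).

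Among 17 co-repressors and enzymes that Snail and Zeb factors use, 2 rose, 1 fell and 14 did not pass, with a median of -0.14. Loxl3, a lysyl oxidase relative that binds Snail, read 119.3 and 148.5 in KO clones and 28.9 and 30.1 in WT clones and rose by 1.71 ± 0.19 (limma, adjusted p = 0.0019). The LIM protein gene Limd1 rose by 1.20 ± 0.21 (limma, adjusted p = 0.019), but its probe sets averaged 0.47 (limma, adjusted p = 0.14). The histone methyltransferase gene Ehmt2 (G9a) fell by 0.88 ± 0.18 (limma, adjusted p = 0.032), a call that was lost with any 1 array left out. The Limd1 call was lost without KO clone 1, KO clone 2 or WT clone 2 (limma, adjusted p = 0.12, 0.092 and 0.093). Of 13 genes that control the turnover of Snail and Twist proteins, 0 passed (limma, 3 with an unadjusted p under 0.05, median -0.12). The ubiquitin ligase subunit Fbxl14, which targets Snail, was at -0.72 ± 0.21 (limma, adjusted p = 0.098) and Fbxl5 at 0.56 ± 0.22 (limma, adjusted p = 0.21).

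Of 14 tested relatives of vimentin among intermediate filaments and lamins, 0 rose, 2 fell and 12 did not pass (limma, 5 with an unadjusted p under 0.05), with a median of -0.11. The falls were 0 without KO clone 1, 1 with any other array left out, and 4 with median centring, a pseudocount of 64 or a variance trend. The nuclear lamin Lmnb1 read 433.4 and 657.0 in KO clones and 1893 and 1376 in WT clones, without overlap, and fell by 1.57 ± 0.25 (2.96-fold, limma, adjusted p = 0.012). Without KO clone 1 it was at -1.27 (limma, adjusted p = 0.11). The other was the keratin Krt18, described above. The lamin gene Lmna, named after its values were seen, read 348.0 and 412.2 in KO clones and 224.1 and 188.7 in WT clones (0.83 ± 0.19, limma, adjusted p = 0.052). It passed as higher in 5 of 13 alternatives.

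For each member that rose, the genes with the most similar values over the 4 arrays were found among 557 other genes past the threshold, by the Euclidean distance between log2 values centred on the gene's own mean. They rank likeness over 4 arrays only. Nearest to Prrx1 (1425528_at) were Inhba at 0.21, Gng11 at 0.26 and Lox at 0.30. Nearest to Twist2 were Lce1h and Ltbp3 at 0.16 each and Thbd at 0.18. Foxc2 lay closest to Rnase4 at 0.13, Il6 at 0.14 and Ntn4 at 0.15, which share its higher reading in KO clone 1. Snai2 (1447643_x_at) lay closest to Ivl at 0.034, Irgm1 at 0.095 and Irx3 at 0.10. Il6 and Ivl passed the filter through the KO clones only. In WT clones 1 and 2, Il6 read 2.545 and 3.783 and Ivl 1.841 and 4.018.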

How the data were processed

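For every probe set the deposited table gives the authors' linear intensity on each of the 4 arrays. Per the labels' protocols, RNA was purified on silica columns and biotin-labelled after the Affymetrix manual. How probes were summarised, corrected for background and scaled is not stated in them. Array trimmed means (2% removed at each end) differed by up to 1.65 times, so the 4 arrays were quantile normalized (limma 3.58.1, R 4.3.3) and log2(intensity + 16) was taken. The 64 control probe sets and probe sets below the 40th percentile of the mean were left out. A linear model with moderated variance (limma, degrees of freedom 2 residual, 6.87 prior) set KO against WT, adjusted over 27022 probe sets (Benjamini-Hochberg, threshold 0.05). The number of arrays limits the precision. No detection calls were used. Symbols came from the platform annotation, which names 1 gene for 34958 rows and several for 932, and the reference gene table (GRCm38.p6) changed 0 of them.

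The members and lists were chosen with earlier results of these data known, so no test was made over a list. Genes named were all members, Klf5, per list the 2 largest rises and 2 largest falls past the threshold (topped up with the next in size when fewer passed), and the 3 nearest genes of each member that rose. The alternatives were pseudocounts of 1 and 64, no filter or one at the 60th percentile, no normalization, median centring, a variance trend, a block for clone number, leaving out each array (which lends the other genotype's spread to the lone array), a threshold of 0.1, and averaging a gene's probe sets. The fit was tested on simulated data.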

Additional observations from a re-analysis of the deposited data

How the results depend on the processing

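The count of 9 member probe sets higher in KO clones was 4 with a pseudocount of 1, 5 with no filter and 4 with the stricter filter, and 3 to 9 with 1 array left out (4 without KO clone 1, 3 without KO clone 2). The count of lower ones was 0 under each alternative. With clone number as a block, 10 were higher. The labels do not pair the clones by number, and the deviations of KO clone 1 and WT clone 1 from their group means correlated at 0.055. Over all probe sets, the 659 higher and 337 lower became 160 and 29 with a pseudocount of 1, 1145 and 915 with 64, 164 and 26 with no filter, 215 and 117 without normalization, 1118 and 837 with a variance trend and 1154 and 845 at a threshold of 0.1. The lower count was 615 with the stricter filter and 1418 with median centring. Leaving out 1 array gave 169 to 530 higher and 34 to 123 lower. For the related lists together, the 31 rises and 4 falls became 13 and 0 with a pseudocount of 1 and with no filter, and 18 and 2 without normalization. The falls were 11 with a pseudocount of 64, 7 with the stricter filter, 13 with median centring, 10 with a variance trend, 7 with the block, 9 at a threshold of 0.1 and 10 with the mean of probe sets. They were 0 to 2 with 1 array left out, when the rises were 14 to 30. The filter, the pseudocount and fewer arrays change which probe sets are tested. For the rest, the cause was not tested.

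The median of all probe sets was -0.022, -0.19 without normalization and -0.16 with median centring, and the share of calls that were higher was 66.2% as reported and 31.1% with median centring. Relative to the median without normalization Snai1 was at 0.11. Median centring gives the same value by construction, because it only subtracts a constant from each array. Of 204 member values under alternatives, 169 kept sign and call, 20 lost the call, 9 gained it and 6 turned: Snai1 to -0.080 without normalization, -0.043 with median centring, -0.045 without KO clone 2 and -0.028 without WT clone 2, Zeb1 (1443005_at) to 0.018 without WT clone 1 and Twist1 to -0.096 without KO clone 2. With 1 array left out the far ends of their ranges were 0.16 for Snai1, -0.17 for Zeb1 and 0.82 for Twist1. Signal near background limits Zeb2, Foxc1, Twist1 and the WT readings of Prrx1 and Foxc2.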

Other observations

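Markers of other cell types that could make the EMT factors were read on the same arrays. Of 9 neural crest markers, 8 were named on the array and 6 tested (limma, 2 with an unadjusted p under 0.05). Sox9 was called higher (1.01 ± 0.22, limma, adjusted p = 0.038). Ngfr, Foxd3 and Tfap2a were at -0.64 ± 0.25, -0.37 ± 0.22 and -0.22 ± 0.18 (limma, adjusted p = 0.2, 0.37 and 0.53). Pax3 and Sox10 were at 0.08 ± 0.18 and -0.039 ± 0.25 (limma, adjusted p = 0.84 and 0.95). Sox9 passed the filter through the KO clones only, and it was called in 4 of 11 alternatives and not with no filter (limma, adjusted p = 0.15). The summed intensity of that list was 236.1 and 315.7 in KO clones and 366.5 and 333.5 in WT clones. For primitive streak and mesoderm, 7 were tested and 0 passed (limma, adjusted p under 0.05, 1 with an unadjusted p under 0.05), and the sums were 285.4 and 326.9 in KO clones and 254 and 207.2 in WT clones. Of 4 tested endothelial markers, Vwf was called lower, with 3.36 and 15.7 in KO clones and 40.7 and 35.1 in WT clones (-1.12 ± 0.25, limma, adjusted p = 0.044). Flt1 went the other way, at 47.2 and 56.9 in KO clones and 27.5 and 23.0 in WT clones (0.72 ± 0.19, limma, adjusted p = 0.073). Kdr and Tek were at 0.15 ± 0.25 and -0.34 ± 0.19 (limma, adjusted p = 0.78 and 0.34). The sums were 162.3 and 214.4 in KO clones and 229.3 and 211.8 in WT clones. Vwf passed the filter through the WT clones only, and it was called in 5 of 12 alternatives and not with no filter (limma, adjusted p = 0.17).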
